A study of Mus musculus with 12 samples.

Results

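The genes that present peptides on major histocompatibility complex (MHC) class II were followed in neutrophils sorted from mammary tumors and from bone marrow. They were taken by symbol as a fixed list of 7 genes, H2-Aa, H2-Ab1, H2-Eb1, Cd74, H2-DMa, H2-DMb1 and Ciita, and all 7 were found among the 55335 genes listed per library. All 7 passed the filter on low counts in each comparison. The 12 RNA-seq libraries came from 3 groups of 4 mice aged 10 weeks, all on the FVB background. PyMT mice expressed polyoma virus middle T, an oncogene, in their mammary glands and gave tumor associated neutrophils (PyMT TANs). PyMT-Cxcr2-/- mice carried the same oncogene and lacked the chemokine receptor Cxcr2 in the whole body (PyMT-Cxcr2-/- TANs). WT mice without the oncogene gave bone marrow (BM) neutrophils, so the tissue and the tumor-bearing state cannot be told apart in the comparisons with BM, and Cxcr2-/- marrow was not analysed here. Neutrophils of all groups were enriched on CD11b and sorted as CD45+ CD11b+ Ly6G+ F4/80- cells.

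MHC class II molecules are pairs of an alpha and a beta chain that show peptides from the endosomal pathway to CD4+ T cells. The invariant chain Cd74 escorts the pairs to the endosome, where proteases trim it to a short peptide that H2-DM exchanges for an antigen. Dendritic cells, B cells and macrophages are the usual carriers of class II, marrow neutrophils carry little of it, and Ciita is the coactivator that switches the whole set on, through factors bound to a shared X and Y module upstream of each gene.

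To show the letters of such a module, 4 promoters of class II genes are printed here. RefSeq promoter windows (build GRCm38.p6) were matched for 4 of the 7 genes, while H2-Ab1, Cd74 and Ciita were not matched. The bases just before the annotated start of H2-Aa (chr17:34287824-34287933, minus strand), H2-Eb1 (chr17:34305757-34305866, plus strand) and H2-Ob (chr17:34238795-34238902, plus strand), and a stretch of 30 bases of the H2-DMb1 window (chr17:34153088-34153117, plus strand) were, from 5′ to 3′ and with capitals for motif matches:
H2-Aa: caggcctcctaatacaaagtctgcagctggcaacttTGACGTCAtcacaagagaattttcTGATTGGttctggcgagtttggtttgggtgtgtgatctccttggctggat
H2-Eb1: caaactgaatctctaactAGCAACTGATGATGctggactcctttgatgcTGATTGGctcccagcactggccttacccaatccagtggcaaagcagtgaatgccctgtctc
H2-DMb1: gtttacctAGTAACTGATGATGctaggctg
H2-Ob: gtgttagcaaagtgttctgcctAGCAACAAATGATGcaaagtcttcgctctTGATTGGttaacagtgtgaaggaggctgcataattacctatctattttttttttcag

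The motifs were X (AGNAACNNATGATG, with N for any base), Y (TGATTGG) and the cyclic AMP response element CRE (TGACGTCA), each searched on both strands. X was spelled as the bases that H2-Eb1, H2-DMb1 and H2-Ob share, so its presence in them follows from the choice. H2-Eb1, H2-DMb1 and H2-Ob held X followed by Y, with 17, 18 and 15 bases between the motifs. The H2-DMb1 window lies in an annotated exon, so only its X motif is shown. Among 32851 promoter windows of the same length, X was found in 8 (0.0244%), Y in 2568 (7.82%), CRE in 588 (1.79%), and X with Y in 3 (0.00913%), which were the windows of these 3 genes. Of the motifs as spelled here, H2-Aa held CRE followed by Y, and H2-Eb2, H2-DMb2 and H2-Oa held Y alone. X as spelled asks for each base that the 3 genes share, so the search cannot show that other windows lack a differing X sequence. No match was found in the 2 windows of H2-DMa. The 110 bases before their starts (chr17:34122722-34122831 and chr17:34125408-34125517) lie within the annotated gene, and the first stretch overlaps an exon of it. No other start of H2-DMa was searched. The motifs do not overlap each other in the printed sequences, and a match describes letters and does not show that a factor bound there.

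The group labels were checked first on Cxcr2, the inactivated gene. It was at 1536, 1048, 1130.2 and 1029.5 CPM (the counts of a gene relative to the library size, scaled by TMM) in PyMT TANs, 8.97, 9.78, 10.1 and 9.10 in PyMT-Cxcr2-/- TANs and 1818 to 2249.9 CPM in WT BM neutrophils. Total counts on genes were between 25032704 and 51351569 per library, so that 3 counts, taken as the lowest level the depth can show, stood for 0.0584 to 0.12 CPM (counting error only). Neutrophil markers were measured as a list of 12 genes that includes Cxcr2. Its summed level was 15307 to 23171 CPM in PyMT TANs, 24574 to 38535 CPM in PyMT-Cxcr2-/- TANs and 85050 to 113115 CPM in BM. In BM the sum was mostly S100a8 (25163 to 31132 CPM) and S100a9 (28381 to 41351 CPM), so it does not stand for all 12 markers. The calls of this list are given below with the other marker lists. Ly6g, the sorting antigen, was at 48.4, 31.5, 41.3 and 20.0 CPM in PyMT TANs, 106 to 183 CPM in PyMT-Cxcr2-/- TANs and 477 to 655 CPM in BM. Adgre1, which encodes the F4/80 antigen that the sort excluded, was at 69.2 to 187 CPM in PyMT TANs, 78.0 to 143 CPM in PyMT-Cxcr2-/- TANs and 8.64 to 12.1 CPM in BM. PyMT TAN replicates 3 and 4 stood apart by their epithelial markers, with a summed level of 242 and 272 CPM against 33.5 and 56.8 CPM in replicates 1 and 2. In PyMT-Cxcr2-/- TANs the level was 193 and 192 CPM in replicates 1 and 2 against 62.8 and 84.5 CPM in replicates 3 and 4. Results were also computed without the 2 higher libraries of either genotype.

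Cd74, the invariant chain (ENSMUSG00000024610, chromosome 18 of mm10, 60803848 to 60812652), was the most abundant transcript of the set. It was at 1002, 2009, 1839 and 829.4 CPM in PyMT TANs 1 to 4, at 1680.5, 1604, 1093 and 927 CPM in PyMT-Cxcr2-/- TANs 1 to 4, and at 12.1, 11.5, 10.7 and 6.82 CPM in WT BM neutrophils 1 to 4. The TAN groups lay over each other, and every TAN library was far above every BM library. The microRNA gene Mir5107 lies within Cd74.

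The classical chains followed the same pattern. H2-Aa, the alpha chain of I-A (ENSMUSG00000036594, chromosome 17, 34282744 to 34287823), was at 496, 1055, 1026 and 588 CPM in PyMT TANs, 927, 867, 560.3 and 509.6 in PyMT-Cxcr2-/- TANs and 5.36, 6.10, 5.37 and 3.55 CPM in BM neutrophils. H2-Ab1, its beta chain partner (ENSMUSG00000073421, chromosome 17, 34257689 to 34269419), was at 325, 606, 616 and 313 CPM in PyMT TANs, 583, 553, 373 and 328 in PyMT-Cxcr2-/- TANs and 3.27, 2.93, 2.91 and 1.57 CPM in BM. In both genes PyMT TAN replicates 2 and 3 and PyMT-Cxcr2-/- TAN replicates 1 and 2 were the higher libraries of their groups, and no TAN library came near the marrow level.

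H2-Eb1, the beta chain of I-E (ENSMUSG00000060586, chromosome 17, 34305867 to 34316674), was much lower in tumor libraries than the I-A chains. It was at 12.03, 20.9, 18.3 and 16.1 CPM in PyMT TANs, 14.3, 14.04, 14.5 and 12.4 in PyMT-Cxcr2-/- TANs and 1.47, 1.77, 1.74 and 1.51 CPM in BM. The PyMT-Cxcr2-/- values all fell within the range of the PyMT values, and the marrow values stayed below both. The reads of these FVB mice were aligned to the C57BL/6 reference, while class II exons differ between strains, and the effect of this on the counts was not tested.

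H2-DMa and H2-DMb1 encode the chains of H2-DM, the peptide exchanger. H2-DMa (ENSMUSG00000037649, chromosome 17, 34119541 to 34139101) was at 20.6, 37.5, 52.9 and 28.3 CPM in PyMT TANs, 40.0, 37.0, 28.1 and 21.9 in PyMT-Cxcr2-/- TANs and 2.82, 1.96, 1.51 and 2.07 CPM in BM. H2-DMb1 (ENSMUSG00000079547, chromosome 17, 34153072 to 34160230) was at 11.05, 16.3, 15.03 and 12.3 CPM in PyMT TANs, 20.9, 18.5, 14.8 and 11.7 in PyMT-Cxcr2-/- TANs and 2.10, 2.18, 1.77 and 2.29 CPM in BM. Both separated tumor from marrow in every library and overlapped between the TAN genotypes. H2-DMa shares exonic sequence with Brd2 on the opposite strand and H2-DMb1 has a close paralog in H2-DMb2, so both counts are uncertain.

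Ciita, the class II transactivator (ENSMUSG00000022504, chromosome 16, 10480059 to 10528418), was the lowest of the set in the marrow. It was at 25.9, 63.8, 44.5 and 24.6 CPM in PyMT TANs, 56.1, 65.5, 44.7 and 32.1 in PyMT-Cxcr2-/- TANs and 0.989, 0.778, 0.771 and 0.419 CPM in BM, where it had 15 to 33 counts per library. PyMT-Cxcr2-/- libraries were at or above the middle of the PyMT range except replicate 4, with overlap between the TAN groups and none with BM. Ciita overlaps Dexi on the opposite strand, and whether the counting used the strand is not given in the sources used here.

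**Figure D1:**
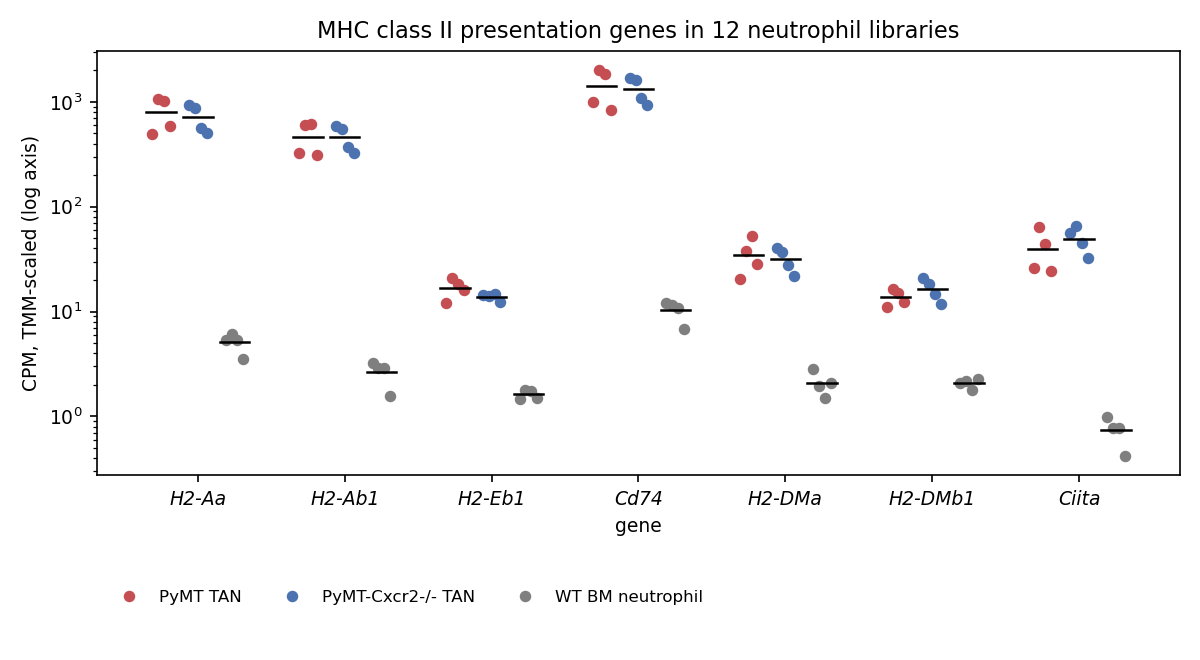
CPM (log axis) of each of the 7 class II genes in the 12 libraries, 1 point per mouse, by group. In each gene the 4 BM libraries sit below all 8 TAN libraries, from 6.82 to 12.1 CPM against 829.4 to 2009 CPM for Cd74, while the TAN genotypes overlap.

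Levels were compared between genes per kb of exon length. In PyMT TANs the order was Cd74 at 846 ± 352 CPM per kb (SD, n = 4), H2-Aa at 208 ± 76.5, H2-Ab1 at 181 ± 65.7, H2-DMa at 10.1 ± 4.02, H2-Eb1 at 8.66 ± 1.93, H2-DMb1 at 8.12 ± 1.44 and Ciita at 4.16 ± 1.93 CPM per kb. Cd74 stood above the I-A chains in all libraries and these above the remaining genes, while H2-Aa overlapped H2-Ab1, and each of the last 4 genes overlapped the next in the order. In PyMT-Cxcr2-/- TANs the same 3 genes led at 789.9 ± 222, 189 ± 55.7 and 179 ± 49.7 CPM per kb (SD, n = 4), followed by H2-DMb1 at 9.81 ± 2.40, H2-DMa at 9.21 ± 2.41, H2-Eb1 at 7.10 ± 0.501 and Ciita at 5.20 ± 1.51 CPM per kb, with overlap at the same places.

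The order was flatter in the marrow. Cd74 still led at 6.12 ± 1.41 CPM per kb (SD, n = 4), but H2-Aa (1.34 ± 0.286), H2-DMb1 (1.24 ± 0.133), H2-Ab1 (1.04 ± 0.293), H2-Eb1 (0.835 ± 0.0809) and H2-DMa (0.606 ± 0.157 CPM per kb) each overlapped the next, and Ciita was last at 0.0775 ± 0.0248 CPM per kb with no overlap. H2-DMb1 and H2-Eb1 thus lay beside the I-A chains in the marrow and far below them in the TANs.

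The comparison of PyMT TANs with WT BM neutrophils asks how neutrophils in the tumor differ from those in the marrow. A gene was called at an adjusted p under 0.05 and a fold of 1.5 or more. All 7 class II genes were higher in PyMT TANs, as were 30.1% of the 17153 genes tested. The groups did not overlap in any of the 7, as in 28.4% of all genes in this direction. The median log2 fold change was 5.83 over the 7 genes and 0.09 over all genes tested.

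The size of the difference separated the set into a large and a smaller group. The log2 fold change of H2-Ab1, the highest, was 7.53 (standard error 0.36), a 185-fold difference with a Benjamini-Hochberg adjusted p of 6.3e-08 in the quasi-likelihood test of edgeR. H2-Aa was at 7.37 (standard error 0.34) and Cd74 at 7.20 (standard error 0.38), while Ciita was at 5.83 (standard error 0.41), a 56.9-fold difference with an adjusted p of 6.3e-07 from the same test. H2-DMa (4.15, standard error 0.34), H2-Eb1 (3.46, standard error 0.25) and H2-DMb1 (2.79, standard error 0.23) had smaller log2 fold changes, the last of them a 6.94-fold difference with an adjusted p of 2.1e-06 from edgeR. The 95% interval of H2-DMa (3.41 to 4.88) ended below that of Ciita (4.94 to 6.72), and that of Cd74, the lowest of the first 3, began at 6.37.

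Without PyMT TAN replicates 3 and 4, these log2 fold changes ran from 2.74 for H2-DMb1 to 7.48 for H2-Ab1, and all 7 genes were past the thresholds.

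PyMT-Cxcr2-/- TANs were compared with the same 4 BM libraries, so this comparison shares its controls with the previous one. All 7 genes were higher in PyMT-Cxcr2-/- TANs, as were 34.4% of the 17732 genes tested, with no overlap of the groups in any of the 7, as in 32.5% of all genes. The log2 fold change was 7.55 for H2-Ab1 (standard error 0.29), 7.26 for H2-Aa (standard error 0.27), 7.14 for Cd74 (standard error 0.28) and 6.19 for Ciita (standard error 0.29). It was 4.05 for H2-DMa (standard error 0.24), 3.21 for H2-Eb1 (standard error 0.17) and 3.10 for H2-DMb1 (standard error 0.21). Without PyMT-Cxcr2-/- TAN replicates 1 and 2, these log2 fold changes ran from 2.82 for H2-DMb1 to 7.19 for H2-Ab1, and all 7 genes were past the thresholds. In the full comparison the highest adjusted p of the 7 was 4.3e-08, for H2-DMb1 (edgeR, Benjamini-Hochberg). The median of the 7 log2 fold changes was 6.19, against 0.09 over all genes tested.

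The direct comparison of PyMT-Cxcr2-/- with PyMT TANs asks what the loss of Cxcr2 changes in the tumor. Of the 7 class II genes, 0 were higher and 0 were lower by edgeR, where 1.38% of the 18463 genes tested were higher and 0.596% were lower. With DESeq2 the count was also 0, and 0 of the 7 had an unadjusted p under 0.05 by edgeR. The groups overlapped in each of the 7 genes, where 6.89% of all genes were without overlap and higher and 5.05% without overlap and lower.

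The differences and their intervals were as follows. Ciita had the highest log2 fold change, 0.28 (95% interval -0.41 to 0.97, adjusted p = 0.782 from edgeR with Benjamini-Hochberg adjustment), and H2-DMb1 was at 0.23 (-0.25 to 0.72). H2-Eb1 had the lowest, -0.32 (95% interval -0.76 to 0.12, adjusted p = 0.519 from the same test). H2-Ab1 (-0.06, interval -0.65 to 0.54), Cd74 (-0.14, interval -0.79 to 0.52), H2-DMa (-0.17, interval -0.80 to 0.45) and H2-Aa (-0.18, interval -0.80 to 0.43) lay between them. The intervals leave room for differences of up to 0.97 on the log2 scale in Ciita and of up to 0.80 in the other genes. The median over the 7 genes was -0.14, against -0.07 over all genes tested. Without PyMT-Cxcr2-/- TAN replicates 1 and 2, which held the higher class II levels of their group except in H2-Eb1, the log2 fold changes ran from -0.58 for H2-Aa to -0.06 for H2-DMb1 and Ciita, with 0 called by edgeR.

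**Figure D2:**
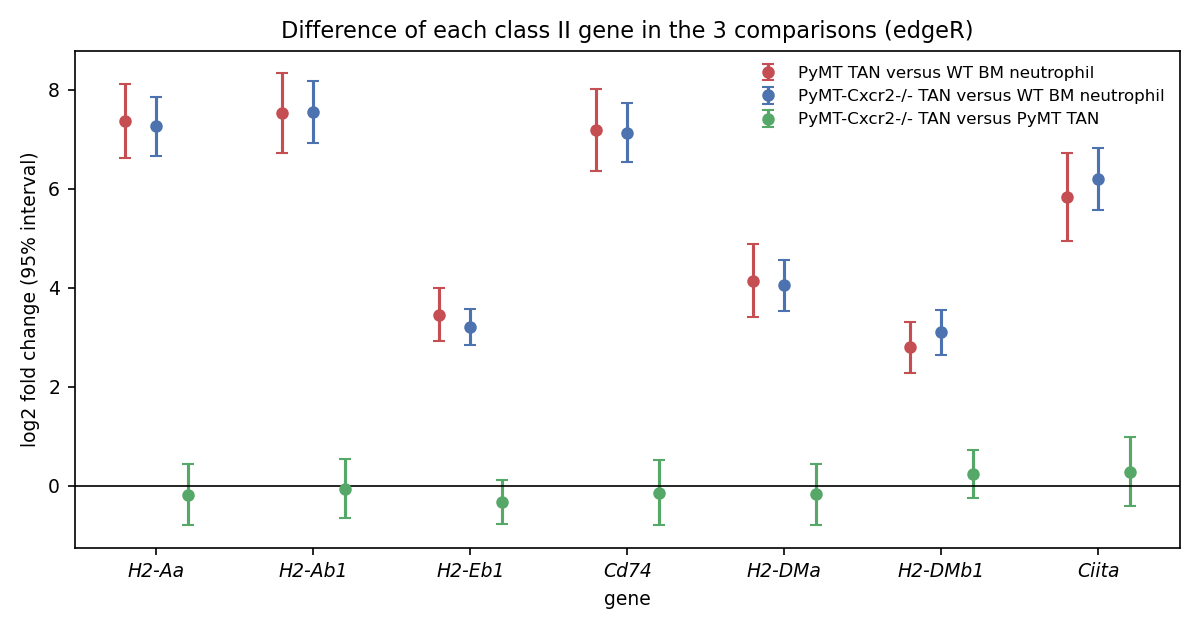
Log2 fold change of each class II gene in the 3 comparisons (points) with its 95% interval (bars), from edgeR. The 2 comparisons with BM lie between 2.79 and 7.55, and the intervals of the direct comparison of the TANs cross 0 in each gene.

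Other chains of class II were followed as a list of 5 genes. H2-Ea-ps, the alpha chain gene of I-E, annotated as a polymorphic pseudogene, was at 17.8, 20.1, 26.1 and 18.4 CPM in PyMT TANs, 28.6, 28.5, 20.5 and 18.0 in PyMT-Cxcr2-/- TANs and 0.0559 to 0.330 CPM in BM, with 2 to 11 counts per BM library. Relative to BM, its log2 fold change was 6.92 in PyMT TANs (standard error 0.41) and 7.18 in PyMT-Cxcr2-/- TANs (standard error 0.34), well above that of H2-Eb1. H2-Ob, the beta chain of H2-O, an inhibitor of H2-DM, was at 4.76 to 13.6 CPM in PyMT TANs, 6.05 to 10.7 CPM in PyMT-Cxcr2-/- TANs and 0.373 to 0.659 CPM in BM, and rose by 4.298 (standard error 0.42) and 3.94 (standard error 0.29) on the log2 scale.

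The list did not move as a whole. H2-DMb2, the second DM beta chain gene, was at 12.4 to 19.7 CPM in PyMT TANs, 13.9 to 22.3 CPM in PyMT-Cxcr2-/- TANs and 11.7 to 16.7 CPM in BM. It was thus near its tumor level in the marrow already, and its log2 fold change of 0.24 in PyMT TANs (adjusted p = 0.382 by edgeR) and 0.56 in PyMT-Cxcr2-/- TANs (adjusted p = 0.0114, a 1.47-fold difference, under the threshold of 1.5) was not called. H2-Oa, the alpha chain of H2-O, had 5 to 48 counts per library, and H2-Eb2, a further beta chain gene, had 0 to 85. In all, 2 of the 4 genes tested rose in PyMT TANs (median log2 fold change 2.45) and 4 of the 5 in PyMT-Cxcr2-/- TANs (median 3.94), H2-Oa (adjusted p = 0.0367, edgeR) and H2-Eb2 among the latter, with 0 lower. Of all genes 30.1% and 34.4% were higher, so that 2 of 4 is not far from the background.

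The factors that bind the X and Y module did not follow the class II genes. Of the 7 genes in this list, 6 could be tested, of which 1 was higher and 3 were lower in each comparison of TANs with BM, where 23.2% of all genes were lower in PyMT TANs and 25.1% in PyMT-Cxcr2-/- TANs. Rfx5, the DNA-binding subunit of the RFX complex on the X box, was higher, at 10.7 to 12.998 CPM in PyMT TANs, 6.12 to 10.1 CPM in PyMT-Cxcr2-/- TANs and 4.33 to 5.06 CPM in BM, with log2 fold changes of 1.46 and 1.01. Its partners Rfxap (-0.63 and -0.75) and Rfxank (-1.45 and -0.78) were lower, as was Nfyb, a subunit of the NF-Y complex on the Y box, at 7.88 to 18.2 CPM in PyMT TANs, 15.7 to 18.0 CPM in PyMT-Cxcr2-/- TANs and 41.5 to 46.6 CPM in BM. The groups did not overlap in Nfyb, as in 29.7% of all genes in this direction in PyMT TANs and in 33.3% in PyMT-Cxcr2-/- TANs. Nfya was listed at 0 in 11 libraries. The medians of the list were -0.43 and -0.54, and Nfyc and Creb1 were not called. Rfx5 and Rfxank overlap other genes on the opposite strand.

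Interferon gamma induces Ciita through its receptor and the kinases Jak1 and Jak2. Ifngr1, the ligand-binding chain of the receptor, was at 196 to 293 CPM in PyMT TANs, 266 to 299.7 CPM in PyMT-Cxcr2-/- TANs and 128 to 136 CPM in BM, and was higher in both types of TANs with log2 fold changes of 0.96 and 1.24. Ifngr2, the second chain, was at 88.2 to 123 CPM in PyMT TANs, 123 to 141 CPM in PyMT-Cxcr2-/- TANs and 219.9 to 275 CPM in BM, and was lower in both (-1.15 and -0.77). The receptor chains thus moved in opposite directions, with no overlap of tumor and marrow in either. Of all genes, 28.4% in PyMT TANs and 32.5% in PyMT-Cxcr2-/- TANs were higher without overlap, and 29.7% and 33.3% were lower without overlap. By the call, 30.1% and 34.4% of all genes were higher and 23.2% and 25.1% lower, so each direction was common. Jak2 was higher in both (1.26 and 0.62), while Jak1 (-0.27 and -0.12) was not called. Irf1, a transcription factor induced by interferon, had log2 fold changes of 0.45 and 0.45, under the fold threshold.

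Jak2 was the only gene of the 5 pathway lists that was called between the TANs. This receptor-associated kinase was at 472, 323, 402 and 428 CPM in PyMT TANs, 239, 214, 277 and 281 in PyMT-Cxcr2-/- TANs and 162 to 186 CPM in BM. The groups did not overlap, as in 5.05% of all genes in this direction. Between the TANs its log2 fold change was -0.72, with a standard error of 0.15 and a Benjamini-Hochberg adjusted p of 0.0361 by edgeR. In the 8 fits that left out 1 mouse the log2 fold change stayed between -0.81 and -0.60, and the call was lost in each, with adjusted p between 0.0617 and 0.107 by edgeR.

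The proteases that trim Cd74 and antigens, with the turnover genes, made a list of 8. In PyMT TANs 5 were higher and 1 lower, and in PyMT-Cxcr2-/- TANs 6 were higher and 0 lower, with medians of 2.88 and 2.90 on the log2 scale, where 30.1% and 34.4% of all genes were higher and 23.2% and 25.1% lower. Ctss, cathepsin S, which cuts the last steps of Cd74 in macrophages and dendritic cells, was at 357, 683, 667 and 598 CPM in PyMT TANs, 553, 626, 318 and 263 in PyMT-Cxcr2-/- TANs and 6.11 to 9.59 CPM in BM. Lgmn, the asparagine endopeptidase, was at 195 to 393 CPM in PyMT TANs, 192 to 390.4 CPM in PyMT-Cxcr2-/- TANs and 6.62 to 10.0 CPM in BM.

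Their log2 fold changes from BM were 6.27 and 5.92 for Ctss and 5.32 and 5.25 for Lgmn. Ctsb (3.27 and 3.10), Ctsl (2.85 and 3.30) and the thiol reductase Ifi30 (2.90 and 2.70) were higher by less, and Ctsd was called in PyMT-Cxcr2-/- TANs only (0.71, against 0.38 in PyMT TANs), a difference between the TANs that had an adjusted p of 0.643 (edgeR). March1, the ubiquitin ligase that removes class II from the surface, was lower in PyMT TANs (-0.86), and its change of -0.49 in PyMT-Cxcr2-/- TANs was under the fold threshold. Ctsl, Ctsb, Ctsd, Ifi30 and March1 overlap other annotated genes.

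Among 5 genes of costimulation, which T cells need beside the peptide, 4 were higher in each type of TAN, as were 30.1% and 34.4% of all genes. Cd83, a surface protein that stabilizes class II and Cd86, was at 38.4, 59.95, 154 and 106 CPM in PyMT TANs, 115, 115, 60.8 and 60.6 in PyMT-Cxcr2-/- TANs and 0.0599 to 0.343 CPM in BM, with 2 to 12 counts per BM library. Its log2 fold change was 8.65 in both comparisons (standard errors 0.59 and 0.40). Cd40 (3.22 and 3.37), Cd86 (1.29 and 1.49) and Cd80 (0.96 and 0.88) rose by less, with Cd86 at 44.9 to 74.7 CPM in PyMT TANs and 22.5 to 28.3 CPM in BM. Icosl, the ligand of Icos, was lower in PyMT-Cxcr2-/- TANs (-0.76) and at -0.40 in PyMT TANs (adjusted p = 0.0902 by edgeR).

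**Figure D3:**
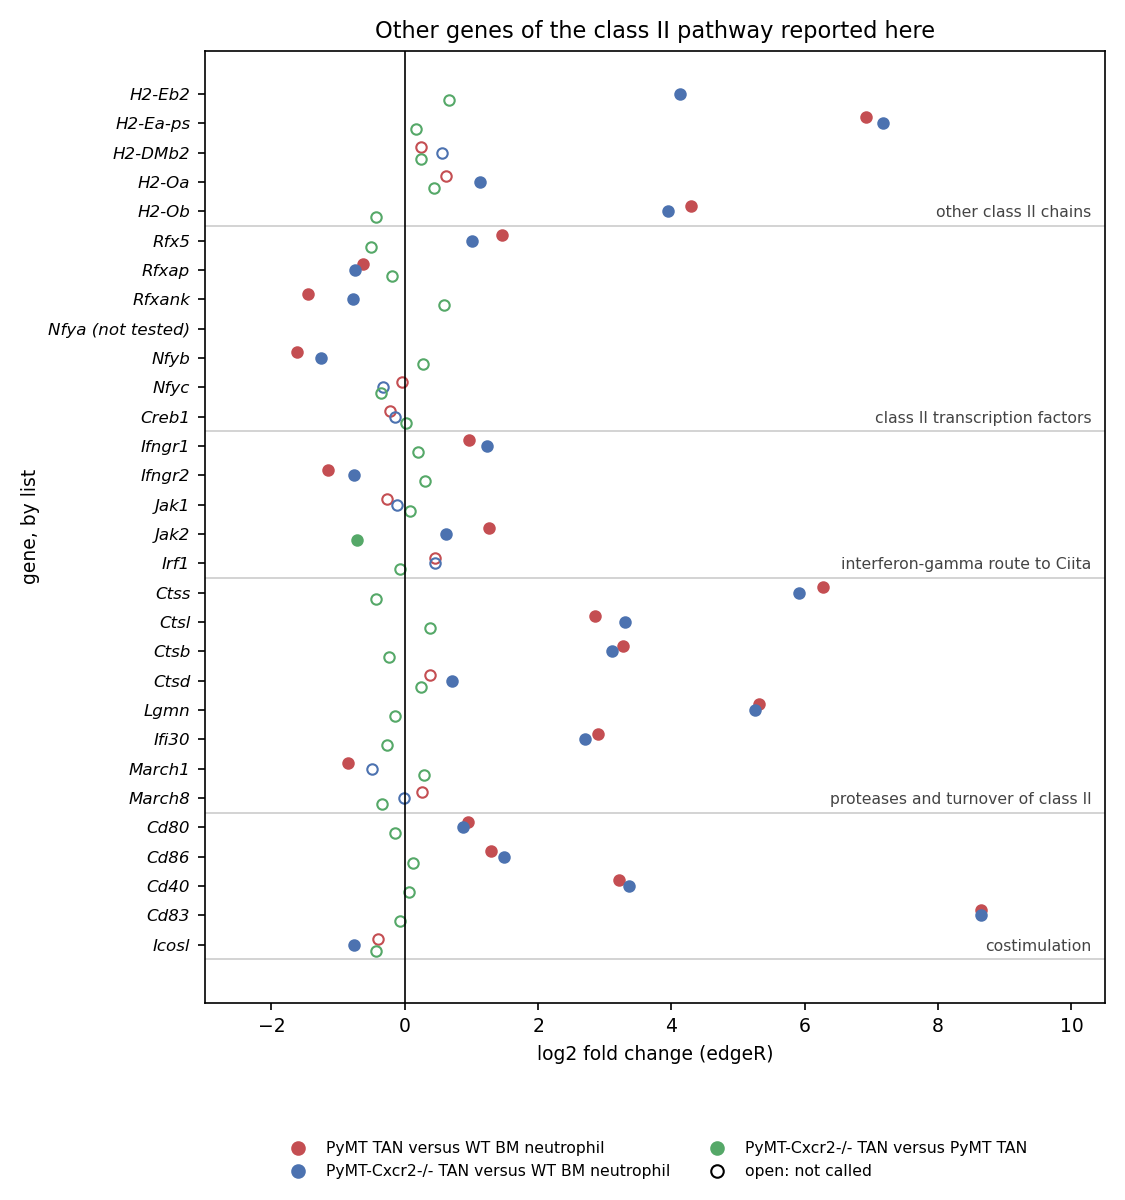
Log2 fold change (edgeR) of the other genes of the class II pathway reported here in the 3 comparisons, by list, with filled points for genes past the thresholds (adjusted p under 0.05, fold of 1.5 or more) and open points for the others. Cd83, H2-Ea-ps, Ctss and Lgmn lie farthest to the right in both comparisons with BM, and Jak2 is the only filled point of the comparison of the TANs.

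Class II is also carried by other cells of the tumor, and markers of these cells were measured in the same libraries. In bulk samples, fewer cells of a type and less RNA per cell cannot be told apart. All 12 genes of a macrophage list were higher in both types of TANs than in BM, as were 30.1% and 34.4% of all genes. The medians of the list were 6.68 and 6.70 on the log2 scale, and no gene of it was at 0 in all libraries of a group. The summed level of the list was 2203 to 5247 CPM in PyMT TANs, 2411 to 5041 CPM in PyMT-Cxcr2-/- TANs and 221 to 315 CPM in BM. The complement genes C1qa, C1qb and C1qc, products of macrophages, summed to 389, 935, 1064 and 721 CPM in PyMT TANs, 817, 876, 519.7 and 393 in PyMT-Cxcr2-/- TANs and 1.79 to 5.70 CPM in BM. Their log2 fold changes in PyMT TANs were 7.99, 7.86 and 7.90, near those of H2-Aa, H2-Ab1 and Cd74. The other class II genes were lower, at 2.79 to 5.83. Over the whole macrophage list the log2 fold changes in PyMT TANs ran from 1.82 for Csf1r to 10.2 for Ms4a7. Between the TANs, 0 of the 12 macrophage genes were called by edgeR, and 0 had an unadjusted p under 0.05.

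Most markers of dendritic cells were higher in the TANs too. Of 10 genes, 7 were higher in PyMT TANs and 8 in PyMT-Cxcr2-/- TANs (30.1% and 34.4% of all genes), with medians of 1.85 and 1.73 on the log2 scale. The summed level was 385 to 507 CPM in PyMT TANs, 295 to 326 CPM in PyMT-Cxcr2-/- TANs and 129 to 169 CPM in BM, but Itgax made up 81.6% to 95.9% of it in each library. Clec10a, a lectin of dendritic cells and macrophages, was at 3.72 to 71.5 CPM in PyMT TANs, 9.08 to 30.4 CPM in PyMT-Cxcr2-/- TANs and 0.196 to 0.903 CPM in BM, with log2 fold changes of 5.96 and 5.33. Batf3 (3.15 and 2.80), Ccr7 (2.84 and 3.61), Cd209a (2.05 and 1.26) and Itgax (1.59 and 1.11) were also higher in both types of TANs. Flt3, the growth factor receptor of dendritic cells, was at 0 to 0.924 CPM in PyMT TANs, 1.02 to 2.60 CPM in PyMT-Cxcr2-/- TANs and 0.150 to 0.447 CPM in BM, and the lineage factor Zbtb46 was at 1.55 to 5.27, 1.44 to 2.89 and 1.51 to 2.60 CPM. Flt3 was called in PyMT-Cxcr2-/- TANs (2.79) and not in PyMT TANs (1.04), with an adjusted p of 0.404 between the TANs (edgeR), and Zbtb46 was called in neither. Between the TANs, 0 of the 10 genes were called by edgeR and 1 had an unadjusted p under 0.05.

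B cell markers did not rise with class II. Of the 10 genes, 0 were called higher by edgeR in either comparison with BM, with 2 of the 9 tested in PyMT TANs and 2 of the 8 tested in PyMT-Cxcr2-/- TANs at an unadjusted p under 0.05. The latter 2 were called lower, as were 25.1% of all genes in that comparison. Of all genes 30.1% and 34.4% were higher, and 10622 of 17153 and 12697 of 17732 had an unadjusted p under 0.05 by edgeR. No B cell marker was above 5.40 CPM in a TAN library, so the lack of calls rests on low counts. The summed level was 3.90 to 26.3 CPM in PyMT TANs, 8.99 to 19.6 CPM in PyMT-Cxcr2-/- TANs and 17.1 to 31.1 CPM in BM. Of 5 monocyte genes, 4 were higher and Ly6c2 was lower in both types of TANs, where 30.1% and 34.4% of all genes were higher. The shares of all genes that were lower were 23.2% and 25.1%. The list summed to 205 to 551, 364 to 570.5 and 653 to 864 CPM. In BM the sum was mostly Ly6c2, at 641 to 850 CPM, so that it runs against the other genes of the list. Lists of fibroblasts (0.807 to 35.3 CPM), endothelial cells (16.5 to 36.1 CPM), T or NK cells (10.6 to 44.2 CPM) and eosinophils, basophils or mast cells (127 to 283 CPM) were also measured in the TANs, and in BM they were at 0.168 to 1.77, 11.6 to 14.2, 211 to 245 and 49.5 to 65.2 CPM. In BM the T or NK cell sum was mostly Cd3d, at 206 to 240 CPM, with Cd3g next at 3.23 to 3.71 CPM. In the TANs the eosinophil, basophil or mast cell sum was mostly Siglecf (46.4 to 175 CPM) and Kit (35.9 to 108 CPM). Each other gene of that list was at 1.13 CPM or less there. The epithelial list was at 33.5 to 272 CPM in TANs and 0.0599 to 0.400 CPM in BM. Of the 12 neutrophil markers, 1 was higher and 9 were lower than in BM in each type of TAN. In PyMT TANs 30.1% of all genes were higher and 23.2% lower, and in PyMT-Cxcr2-/- TANs 34.4% and 25.1%. The 9 were not all the same markers. Mean levels in PyMT TANs, PyMT-Cxcr2-/- TANs and BM were 2253, 3626 and 3640 CPM for Mxd1, and 675, 458 and 797 CPM for Cxcr4. Between the TANs, 6 markers were higher and 1 was lower in PyMT-Cxcr2-/- TANs, against 1.38% and 0.596% of all genes. The lower one was Cxcr2, the inactivated gene, so its calls in PyMT-Cxcr2-/- TANs follow from the genotype. The part of any of these cells in the class II levels was not tested.

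**Figure D4:**
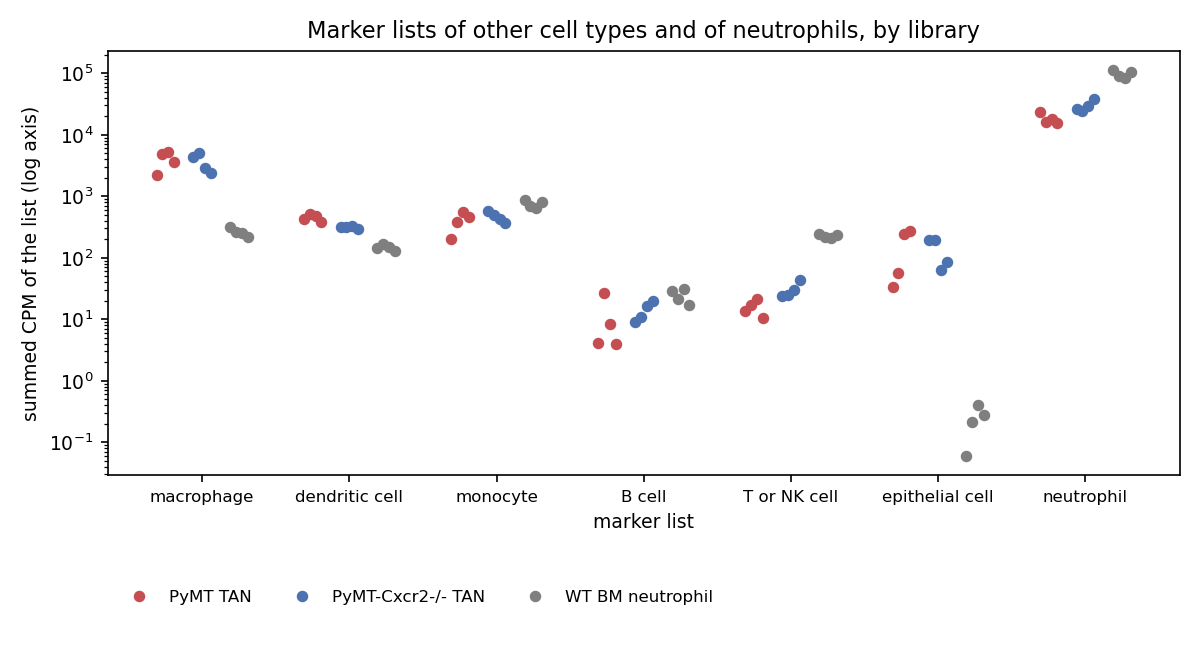
Summed CPM (log axis) of marker lists of other cell types and of neutrophils, 1 point per library, by group. The macrophage list lies at 2203 to 5247 CPM in the TANs and 221 to 315 CPM in BM, the B cell list is at 3.90 to 31.1 CPM in all groups, and the neutrophil list is highest in BM.

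Within the tumor, the class II level of a library went with its level of C1q. Over the 8 TAN libraries, Pearson's r of log2 CPM with the summed C1q level was 0.944 for H2-DMa (Spearman's rho 0.929) and 0.927 for H2-Aa (rho 0.952), with permutation p of 0.000422 and 0.000570 for r and 0.0020 for both after Benjamini-Hochberg adjustment over the 7 relations computed. It was 0.843 for H2-Ab1 (rho 0.833), 0.792 for H2-Eb1 (rho 0.762) and 0.784 for Cd74 (rho 0.786), with adjusted permutation p of 0.0332, 0.0372 and 0.0477. H2-DMb1 (r 0.705, rho 0.738) and Ciita (r 0.647, rho 0.571) had adjusted permutation p of 0.0676 and 0.0876. The adjusted permutation p of rho was 0.00781 for H2-Aa and H2-DMa, 0.0359 for H2-Ab1, 0.0489 for Cd74, and between 0.0515 and 0.151 for H2-Eb1, H2-DMb1 and Ciita.

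Without the 2 libraries farthest from the median C1q level, r stayed at 0.893 for H2-Aa, 0.855 for H2-DMa, 0.770 for H2-Ab1 and 0.728 for Cd74. It fell to 0.533 for H2-Eb1, 0.341 for Ciita and 0.276 for H2-DMb1. The relation of the last 3 was thus weaker over the 6 libraries left. Leaving libraries out in this way also narrows the range of C1q, and r over the 6 was not tested. The points share a library and its scaling. With each genotype centred on its own mean and libraries permuted within genotypes, which was added after seeing the data, r over the 8 libraries was between 0.794 for Cd74 and 0.950 for H2-DMa, with adjusted exact permutation p of 0.0203 to 0.0469 over the 7 genes. Spearman's rho of the centred values was between 0.643 and 0.952, with an adjusted exact permutation p of 0.0486 for H2-DMa and of 0.0891 to 0.153 for the others. The groups of 4 were under the 6 libraries taken as the least for a correlation within 1 genotype.

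The ratio of each gene to C1q was compared in the same way, as an addition made after seeing the data. Cd74 per unit of C1q was 1.15 to 2.57 in TANs and 2.02 to 4.21 in BM, H2-Aa was 0.816 to 1.30 and 1.07 to 2.11, and H2-Ab1 was 0.434 to 0.834 and 0.514 to 1.15, each with overlap of tumor and marrow. H2-Eb1 per unit of C1q was 0.0160 to 0.0315 in TANs and 0.311 to 0.844 in BM, H2-DMa was 0.0392 to 0.0557 and 0.344 to 1.16, H2-DMb1 was 0.0141 to 0.0298 and 0.383 to 1.28, and Ciita was 0.0341 to 0.0861 and 0.137 to 0.303.

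These 4 genes were lower relative to C1q in every TAN library than in every BM library, which restates their smaller fold changes from BM and was not taken as a further test. Between the TANs, the mean log2 ratio of Cd74 to C1q was 1.06 ± 0.15 in PyMT-Cxcr2-/- TANs, against 0.86 ± 0.50 in PyMT TANs (SD, n = 4), a difference of 0.19 (two-sided exact permutation p = 0.6). Relative to the dendritic cell list the difference was 0.46 (exact permutation p = 0.171), and without Itgax it was 0.20 (exact permutation p = 0.743). Ciita per unit of C1q was higher in PyMT-Cxcr2-/- TANs by 0.62 on the log2 scale, with no overlap of the groups and an exact permutation p of 0.0286, the smallest that 4 mice against 4 allow, that became 0.0667 after adjustment over the 21 ratio comparisons computed.

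**Figure D5:**
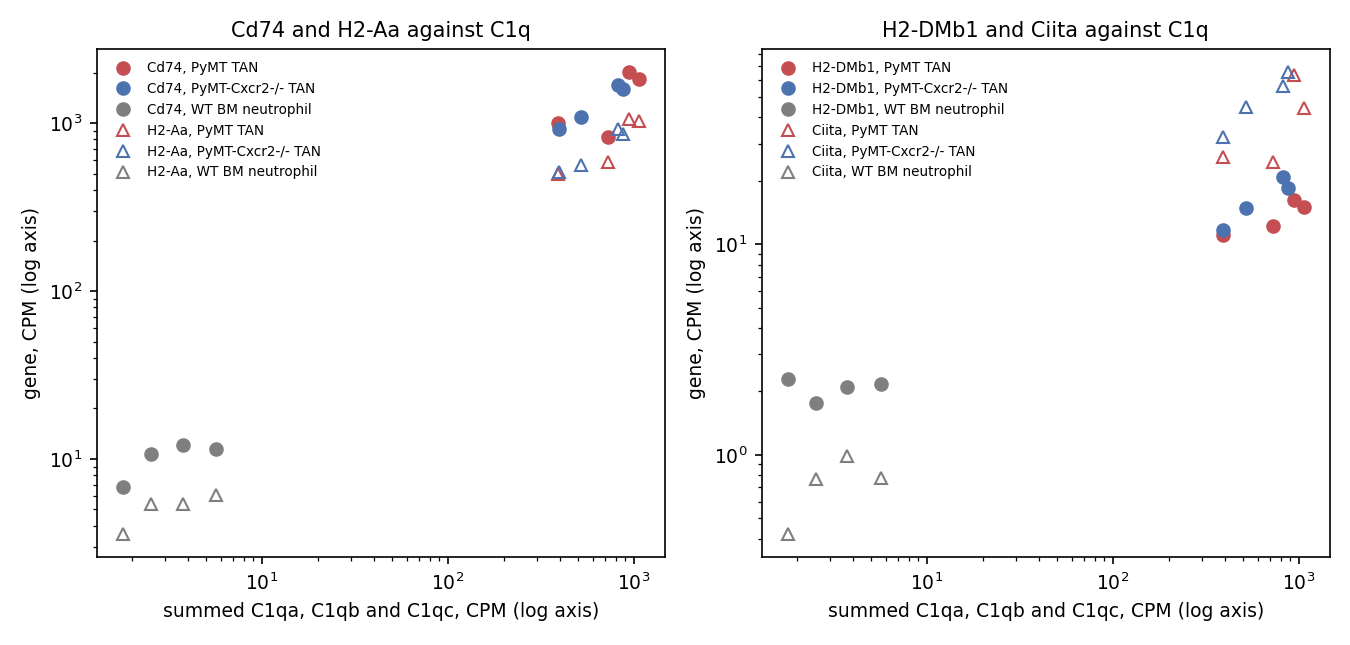
CPM of Cd74 and H2-Aa (left) and of H2-DMb1 and Ciita (right) against the summed CPM of C1qa, C1qb and C1qc, both on log axes, 1 point per library. BM libraries have 1.79 to 5.70 CPM of C1q and TAN libraries 389 to 1064 CPM, and within the TANs Cd74 and H2-Aa are higher where C1q is higher.

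The genes most like the class II set across the 8 TAN libraries were ranked by Pearson's r with the mean of the 7 centred log2 CPM, among 11640 genes. The first 10 were the nucleoside transporter Slc29a3 (0.984), the adenylate cyclase Adcy7 (0.978), the macrophage-expressed pore protein Mpeg1 (0.978), Fam78a (0.976), the kinase Nuak1 (0.974), the transport ATPase Atp13a2 (0.973), the efflux pump Abcc3 (0.968), the telomerase-associated Tep1 (0.968), the histone methyltransferase Ehmt2 (0.967) and the receptor kinase Axl (0.966). Axl was at 133 to 323 CPM in TANs and 1.90 to 4.95 CPM in BM, while Adcy7 was at 73.7 to 121 CPM in TANs and 99.9 to 125 CPM in BM. A pattern like that of class II within the tumor was thus found in a gene far higher in the tumor and in one whose tumor and marrow levels overlapped. Of the listed genes, Cx3cr1 ranked 57th (r 0.918) and Lgmn 77th (0.907), with Apoe, C1qb, H2-DMb2, C1qc and C1qa between ranks 102 and 151. The points share library and depth, and these r are a description over 8 libraries.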

How the data were processed

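Neutrophils from 3 groups of 4 mice were profiled by RNA-seq, with 1 library per mouse, grouped by the sample labels. The authors depleted ribosomal RNA, made directional libraries, sequenced paired ends, mapped reads to mm10 by STAR and summed them over genes by HTSeq. The deposited values are raw counts per gene. The annotation release and strand setting are not given in the sources used here. Rows of reads that HTSeq assigned to no gene (51.4% to 60.5% of all reads listed per TAN library and 46.3% to 54.1% per BM library) were left out of library sizes, and 55154 of 55335 identifiers matched GENCODE M21. Total counts were 25032704 to 51351569 per library.

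Each pair of groups was fitted alone with edgeR 4.0.16 in R 4.3.3 (TMM, filterByExpr, robust quasi-likelihood test). A gene was called at a Benjamini-Hochberg adjusted p under 0.05 over all genes tested and a fold of 1.5 or more, and standard errors were taken from F and the log2 fold change. CPM were scaled by TMM over the 12 libraries, and CPM per kb used the union of exons. Ratios (pseudocount 0.1 CPM) and the relations over 8 libraries were tested by two-sided exact permutation. Log2 CPM for the ranking by likeness used a prior count of 2 and genes with a mean log2 CPM of at least 1. The procedure was tested on simulated data.

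The genes named are the 7 class II genes, 5 lists of the pathway, marker lists and the 10 genes most like the set. Values of 2 listed genes are not reported here. Members and lists were chosen with earlier results of these data known. Alternatives were other normalization factors and filters, DESeq2 1.42.0, all 12 libraries fitted together, estimation that was not robust, a block for the replicate number, other pseudocounts and each mouse left out. Leaving out PyMT TAN replicates 3 and 4 or PyMT-Cxcr2-/- TAN replicates 1 and 2, centring each genotype in the C1q relation, the dendritic list without Itgax and the ratios to C1q of each gene were chosen after seeing the data. Mice that share a number are separate animals. Between replicates, chi-square per degree of freedom was 22.6 to 134.4, above sampling noise. Promoters came from RefSeq (GRCm38.p6).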

Additional observations from a re-analysis of the deposited data

Results flagged for a closer look

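Jak2 differed between the TAN genotypes. In the fit of the TAN libraries alone, PyMT-Cxcr2-/- TANs were lower than PyMT TANs by a log2 fold change of -0.72 (adjusted p = 0.0361, edgeR with Benjamini-Hochberg adjustment), lower in 4 of 4 libraries than each PyMT TAN. It was called in 6 of 18 alternatives, and over the 18 the log2 fold change ran from -0.91 to -0.56 and the adjusted p from 0.00302 to 0.252. Without PyMT TAN replicates 3 and 4 the adjusted p was 0.0893 (edgeR), without PyMT-Cxcr2-/- TAN replicates 1 and 2 it was 0.252, and with 1 mouse left out it was 0.0617 to 0.107. No class II gene had a sample far from the others among the 21 sets of 4 libraries screened.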

How the results depend on the processing

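All 7 class II genes were called higher in PyMT TANs under each of the 17 alternatives and in PyMT-Cxcr2-/- TANs under each of the 17, and 0 of 7 were called between the TANs under each of the 18. The log2 fold change of Cd74 in PyMT TANs ran from 6.97 to 7.65. With library totals alone the median over all genes moved to 0.53 in PyMT TANs and to 0.27 in PyMT-Cxcr2-/- TANs. In PyMT TANs the calls among the 29 genes tested in the 5 pathway lists moved from 14 higher and 6 lower to 18 and 3. In the main fit 30.1% of all genes were higher and 23.2% lower. As the median over all genes moved too, the move of these calls cannot be read as one of the pathway. Between the TANs, differences that were not called changed sign. H2-Ab1 was at 0.0043 without a count filter, and with each mouse left out it ran from -0.20 to 0.12, Cd74 from -0.32 to 0.082 and H2-DMa from -0.32 to 0.12, and H2-DMa was at 0.11 without PyMT TAN replicates 3 and 4. Without PyMT-Cxcr2-/- TAN replicates 1 and 2, H2-DMb1 was at -0.057 and Ciita at -0.063. The ratio of Cd74 to C1q ran from -0.030 to 0.357 with each mouse left out. The cause was not tested. The replicate number does not pair the mice (correlations of same-numbered libraries between -0.223 and 0.102), and with it as a block 7, 7 and 0 class II genes were called in the 3 comparisons, with Cd74 at 7.13 in PyMT TANs. The block called 0 pathway genes between the TANs. In BM, the depth of 15 to 33 counts of Ciita per library limits the precision of its change.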
